A study of Mus musculus with 5 samples.

Results

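Transcripts of the E2F transcription factors and their DP dimerization partners were followed in pancreatic beta cells of mice that did or did not express the cell cycle inhibitor p16INK4a. The family was taken by gene symbol as E2f1 to E2f8, Tfdp1 and Tfdp2, which gave 10 of the 23951 genes in the deposited table. The p16 group held 3 samples of Ins-rtTA/tet-GFP/tet-p16ink4a mice, whose beta cells expressed both p16INK4a and green fluorescent protein. The GFP group held 2 samples of Ins-rtTA/tet-GFP mice, whose beta cells expressed the fluorescent protein without the p16INK4a transgene. In both groups the insulin promoter drives the tetracycline-responsive activator, tetracycline was given for 10 days, and the islets were then dissociated and sorted for green cells. The sources used here give no strain, sex or age of the mice. Values are the authors' FPKM (fragment counts scaled by transcript length and library size), with 1 value per group and gene. The table thus holds no depth per library and no spread between samples, and no SD is given. A gene was called where its q-value in the authors' deposited table was below 0.05.

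E2F factors bind DNA and switch on or hold back the genes needed for entry into S phase. In quiescent cells the RB pocket proteins bind E2F proteins and keep their target genes silent, and the cyclin D kinases release them by phosphorylating the pocket proteins. p16INK4a inhibits those kinases, so its known action on E2F runs through protein binding. In the beta cell, E2F1 is known from mouse work to act on the potassium channel gene Kcnj11 as well as on cell cycle genes.

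The induced gene was measured first. Cdkn2a, which encodes p16INK4a and also the unrelated protein ARF, had 34.6 FPKM in the p16 group and 0.657 FPKM in the GFP group, and was called higher in the authors' deposited table (log2 ratio 5.72, q = 0.00245). The gene value does not separate the p16INK4a transcript from that of ARF, and the labels do not say which species' coding sequence the transgene carried.

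The letters that E2F proteins bind were looked up in the promoters of the family, since some E2F genes are known to be under E2F control themselves. RefSeq windows on GRCm38, from 250 bases before to 50 bases after a transcript start, were searched on both strands for the 4 forms TTTGGCGC, TTTCCCGC, TTTCGCGC and TTTGCCGC, which can overlap one another on opposite strands. Of the 8 members with a window, E2f2, E2f3, E2f7 and Tfdp1 held a match, while E2f1, E2f6, E2f8 and Tfdp2 held none. Over all genes with a window 2.61% held a match, and over the tested genes 4.58%. The matched sites are shown with their flanks, 5′ to 3′ along the gene, with the motif in capitals; where the motif lies on the opposite strand the capitals spell its reverse complement.
E2f2: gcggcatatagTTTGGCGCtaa
E2f3: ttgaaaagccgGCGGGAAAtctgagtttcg
E2f7: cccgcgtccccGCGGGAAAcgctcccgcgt
Tfdp1: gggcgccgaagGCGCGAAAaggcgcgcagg

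The E2f2 site lies at chr4:136172302-136172323 on the plus strand and is cut short by the end of its window. The E2f3 site lies at chr13:29986056-29986085 on the minus strand, the E2f7 site at chr10:110745230-110745259 on the plus strand and the Tfdp1 site at chr8:13338697-13338726 on the plus strand. E2f3 and E2f7 carry the same form, read on the opposite strand. The window of E2f1 begins from a start that lies 466 bases inside the gene as GENCODE release M21 draws it, so the stretch before the first start was not searched. Both Tfdp2 windows lie at inner starts, 62430 and 62973 bases downstream of the first coding start of that gene, so the same holds for Tfdp2. A match describes letters only, and no binding was measured.

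None of the family was called. The authors tested 9 of the 10 members, all but E2f8, and 0 of the 9 passed at a q below 0.05 in the authors' deposited table, where 5.42% of the 13264 tested genes did. A count of 0 among 9 is near that background and says nothing particular about the family. At an unadjusted p below 0.05 in the authors' deposited table the count was also 0 of 9 members, beside 17.2% of tested genes, and the smallest member p was 0.0812. At a q below 0.01 and at a q below 0.1 it was again 0 of 9, beside 2.78% and 7.73% of tested genes. The 9 log2 ratios lay between -0.28 and 0.66 with a median of -0.12, beside a median of -0.02 over all tested genes. The family median was -0.046 with 1 FPKM added to both groups and -0.013 with 5 FPKM added, a step that draws any log2 ratio towards 0. It was -0.0085 relative to genes of like GC content. With quantile normalization it was -0.14, no nearer to 0, beside a median of -0.041 over all tested genes in that setting. Of these 9 members 4 had the higher value and 5 the lower value in the p16 group.

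The activator E2Fs, E2F1 to E2F3, turn on S phase genes once they are free of RB. E2f1 (chr2:154385136-154395628 on mm9, the build of all gene spans given here) was the most abundant of the 3, with 8.28 FPKM in the p16 group and 8.15 FPKM in the GFP group. Its fold of 1.02 was the smallest among the tested members, and 96.2% of tested genes had a larger log2 ratio in absolute size (q = 0.984 in the authors' deposited table). E2f2 (chr4:135728309-135751971) had 1.72 FPKM in the p16 group and 1.38 FPKM in the GFP group, a log2 ratio of 0.31 (q = 0.737 in the authors' deposited table). E2f3 (chr13:29998444-30077932) had 0.885 FPKM in the p16 group and 0.559 FPKM in the GFP group. Its log2 ratio of 0.66, or 1.58-fold, was the largest in the family, without a call (q = 0.441 in the authors' deposited table). E2f3 lay near the bottom of the measured range, at percentile 8.04 of tested genes by mean FPKM, and its log2 ratio was 0.27 with 1 FPKM added to both groups. All 3 activators thus had the higher value in the p16 group, without a call, beside 48.4% of all tested genes with the higher value. E2f1 made up 76.1% of the summed FPKM of the 3 activators in the p16 group, against 80.8% in the GFP group.

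E2F4 and E2F5 carry no strong activation function of their own in quiescent cells and repress as partners of the pocket proteins Rbl1 and Rbl2 in particular. E2f4 (chr8:107821563-107829270) had 30.6 FPKM in the p16 group, the highest value of the family there, and 21.9 FPKM in the GFP group. Its log2 ratio of 0.49, or 1.40-fold, had the smallest p of the family (p = 0.0812, q = 0.370 in the authors' deposited table). E2f5 (chr3:14578671-14611256) went the other way in value, with 14.9 FPKM in the p16 group and 18.2 FPKM in the GFP group (log2 ratio -0.28, q = 0.807 in the authors' deposited table). The ratio of E2f4 to E2f5 FPKM was 2.05 in the p16 group against 1.201 in the GFP group, a difference for which no test could be made from group values. The transcripts of these genes differ in GC content. Relative to genes of like GC content the log2 ratio was 0.18 for E2f4 and -0.094 for E2f5. E2f5 shares its whole locus in the table with 1810022K09Rik, listed at 115.5 FPKM in the p16 group and 145 FPKM in the GFP group, so the split of reads between these genes is uncertain.

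E2F6 lacks the pocket protein binding region and represses through Polycomb-type complexes. E2f6 (chr12:16817771-16833558) had 16.8 FPKM in the p16 group and 18.3 FPKM in the GFP group, a log2 ratio of -0.12 (q = 0.888 in the authors' deposited table). E2F7 and E2F8 are atypical members that bind DNA without a DP partner and repress E2F targets late in S phase. E2f7 (chr10:110182521-110224440) had 0.615 FPKM in the p16 group and 0.667 FPKM in the GFP group (log2 ratio -0.12, q = 0.938 in the authors' deposited table). E2f8 (chr7:56121799-56136411), listed at 0.314 FPKM in the p16 group and 0.302 FPKM in the GFP group, was the lowest member in both and was left untested by the authors.

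The DP proteins are needed for DNA binding by E2F1 to E2F6. Tfdp1 (chr8:13338751-13378448), for the main partner, had 28.7 FPKM in the p16 group and 32.3 FPKM in the GFP group (log2 ratio -0.17, q = 0.830 in the authors' deposited table). Tfdp2 (chr9:96096694-96224065) had 5.88 FPKM in the p16 group and 6.75 FPKM in the GFP group (log2 ratio -0.20, q = 0.802 in the authors' deposited table). Tfdp1 exceeded Tfdp2 4.89 times in the p16 group, against 4.79 times in the GFP group.

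**Figure D1:**
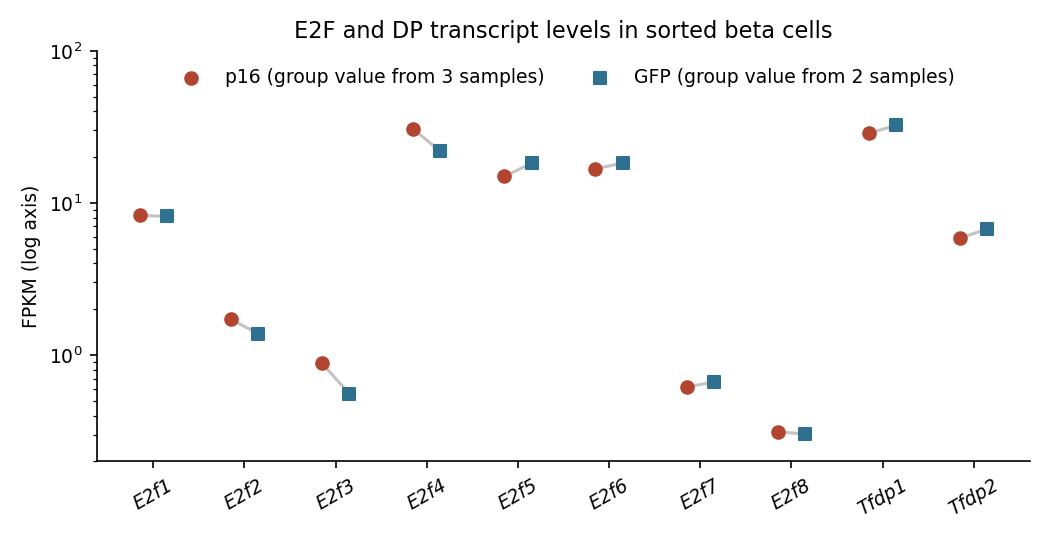
FPKM of each E2F and DP gene on a log axis, with the p16 group value (circle, left) joined to the GFP group value (square, right); there is 1 value per group and no error bar because the table gives none. E2f4, E2f5, E2f6 and Tfdp1 lie above 10 FPKM in both groups, and E2f3, E2f7 and E2f8 lie below 1 FPKM.

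E2f4, Tfdp1, E2f6 and E2f5 were the 4 most abundant members in both groups. In the p16 group the order was E2f4, Tfdp1, E2f6, E2f5, E2f1, Tfdp2, E2f2, E2f3, E2f7 and E2f8, and in the GFP group Tfdp1 stood above E2f4 and E2f7 above E2f3, with the rest unchanged in place. Without a spread between samples, neighbours in this order cannot be told apart by a test, and E2f5 and E2f6 at 18.2 and 18.3 FPKM in the GFP group were nearly equal. The summed FPKM of E2f4, E2f5 and E2f6 was 62.3 in the p16 group against 58.3 in the GFP group. That of E2f1, E2f2 and E2f3 was 10.9 in the p16 group against 10.1 in the GFP group. The repressor sum exceeded the activator sum 5.72 times in the p16 group, against 5.77 times in the GFP group. Within the repressors E2f4 took a larger part of all E2F FPKM, 41.3% in the p16 group against 31.5% in the GFP group. That was again without a test, and with no adjustment for GC content.

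The smallest fold that was called was larger below 1 FPKM than at any higher level. Among the 4776 tested genes with a mean of 5 to 20 FPKM, the range of E2f1, E2f5, E2f6 and Tfdp2, the smallest called fold was 1.76. It was 1.80 among the 2298 genes of 20 to 50 FPKM, the range of E2f4 and Tfdp1, and 1.83 among the 3055 genes of 1 to 5 FPKM, the range of E2f2. At 50 FPKM or more, where no member lies, it was 1.77 over 1645 genes. Below 1 FPKM, where E2f3 and E2f7 lie, it was 2.35 over 1490 genes. Every tested member differed by less than the smallest called fold of its range. In the ranges of E2f3 and E2f4, no gene with a fold as small as theirs was called. These minima are not a detection limit, which cannot be worked out without a spread between samples. A q above the threshold does not show that the groups were alike.

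**Figure D2:**
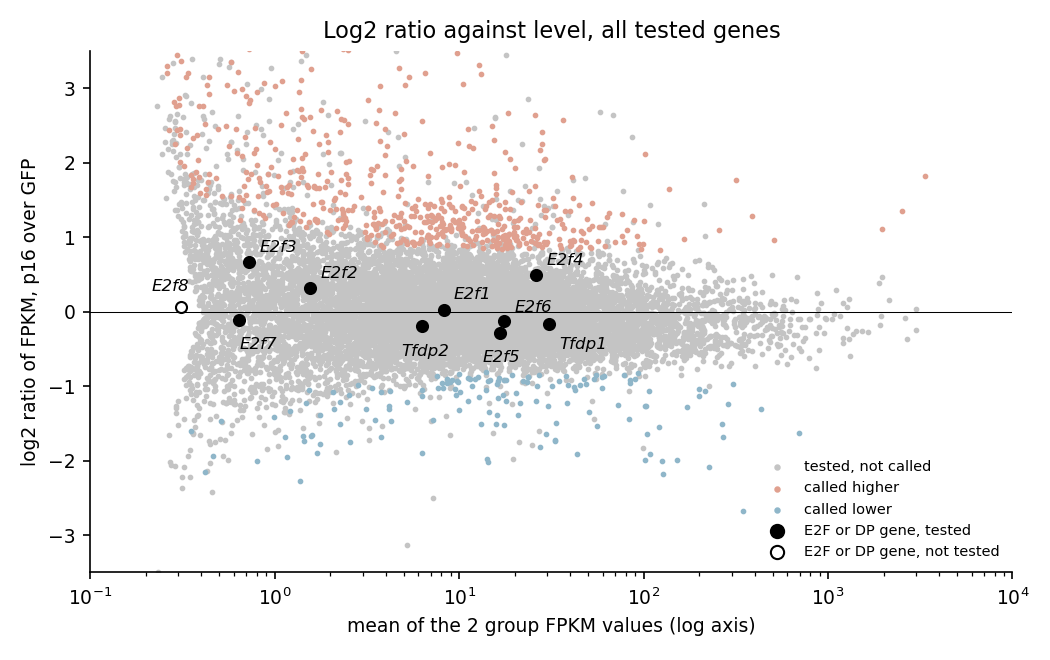
Log2 ratio of FPKM (p16 over GFP) against the mean of the 2 group values on a log axis for the tested genes, with called genes coloured and the family in black (E2f8, not tested, open). All members lie within the band of uncalled genes; 90 genes listed at 0 in a group have no ratio and 44 lie outside the axes.

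The log2 ratios of all tested genes moved with the GC content of the transcript, and the family spans that range. With the tested genes parted into 5 bins of equal size by GC content, the median log2 ratio was -0.31 in the lowest bin and 0.30 in the highest. E2f1, E2f2 and E2f4 have transcripts of 58.3%, 56.6% and 56.1% GC and fall in the highest bin. Relative to that bin's median, the log2 ratio was -0.28 for E2f1, 0.0062 for E2f2 and 0.18 for E2f4. E2f5, Tfdp1 and Tfdp2, at 46.8%, 46.9% and 45.5% GC, fall in a bin with a median of -0.19, and relative to it stood at -0.094, 0.020 and -0.0085. E2f3, at 49.5% GC in the middle bin, stood at 0.70. The part of GC content in these values was not tested.

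**Figure D3:**
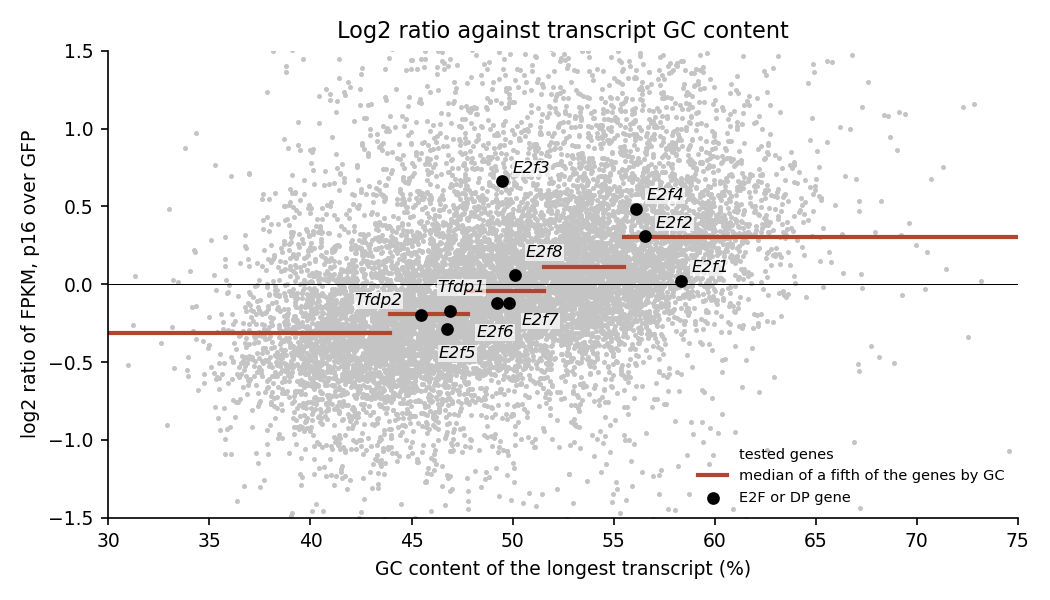
Log2 ratio of FPKM (p16 over GFP) against the GC content of the longest transcript for tested genes (grey), with the median of each of 5 equal bins (lines) and the family (black); genes outside the axes are not drawn. The bin medians climb with GC content, and E2f1 lies below the median of its bin while E2f3 lies furthest above its own.

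The genes that act on E2F, and those that E2F acts on, were described from lists chosen with earlier results of these data known. Among 15 cyclins, kinases and inhibitors upstream of E2F, the authors' deposited table called 3 of 14 tested as higher and 1 as lower, beside 4.32% higher and 1.1% lower over all tested genes. At a q below 0.01 these counts were 2 and 0, beside 2.34% and 0.437%. Both counts of higher genes include Cdkn2a, the induced gene, whose call was fixed by the design. Besides Cdkn2a, the genes called higher at a q below 0.05 were the cyclin D1 gene Ccnd1 and the p15INK4b gene Cdkn2b. Ccnd1 had 72.7 FPKM in the p16 group and 32.7 FPKM in the GFP group (q = 0.00245 in the authors' deposited table). Cdkn2b had 18.7 FPKM in the p16 group and 8.60 FPKM in the GFP group (q = 0.0142 in the authors' deposited table). The gene called lower was Cdkn2c, for the inhibitor p18INK4c, at 3.86 FPKM in the p16 group and 10.6 FPKM in the GFP group (q = 0.0130 in the authors' deposited table). Cdkn2c is itself known as a gene that E2F activates. The p21 gene Cdkn1a, named after its value was seen, had 54.6 FPKM in the p16 group and 31.2 FPKM in the GFP group and was not called (q = 0.0576 in the authors' deposited table).

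The 3 pocket protein genes all had the lower value in the p16 group, with 0 called at a q below 0.05 and 1 at an unadjusted p below 0.05 in the authors' deposited table. Rb1 had 10.8 FPKM in the p16 group and 14.3 FPKM in the GFP group (q = 0.527 in the authors' deposited table). Rbl2 had 7.95 FPKM in the p16 group and 9.94 FPKM in the GFP group (q = 0.787 in the authors' deposited table). Rb1 and Rbl2 each share their locus with other genes. The third, Rbl1, named after its value was seen, had 1.77 FPKM in the p16 group and 3.17 FPKM in the GFP group (p = 0.0193, q = 0.172 in the authors' deposited table). The MuvB core joins E2F4 and the pocket proteins in a repressor complex of quiescent cells, and binds MYB proteins in a separate, activating complex of cycling cells. Among 6 tested genes of MuvB and its MYB partners 0 were called, and 2 had the lower value with an unadjusted p below 0.05 in the authors' deposited table, beside 5.42% called and 7.01% lower at that p over all tested genes. Their median log2 ratio was -0.51, and -0.26 relative to the GC bins, with a median GC content of 43.4%. For the pocket proteins it was -0.41, and -0.13 relative to the GC bins. The most abundant were Rbbp4, which shares its locus with another gene and had 35.2 FPKM in the p16 group and 51.8 FPKM in the GFP group (q = 0.242 in the authors' deposited table), and Lin52, with 11.9 FPKM in the p16 group and 15.9 FPKM in the GFP group (q = 0.466 in the authors' deposited table).

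The repressor complex around E2F6 was represented by 12 genes, of which 0 were called and 3 had an unadjusted p below 0.05 in the authors' deposited table, all lower, beside the same 5.42% and 7.01% of tested genes. The median log2 ratio was -0.11, and -0.053 relative to the GC bins. Cbx3, a heterochromatin protein gene, had 46.8 FPKM in the p16 group and 71.9 FPKM in the GFP group (q = 0.197 in the authors' deposited table). The deacetylase gene Hdac2 had 41.5 FPKM in the p16 group and 63.0 FPKM in the GFP group (q = 0.195 in the authors' deposited table). Among the 4 E2F turnover genes, 0 were called and 1 had an unadjusted p below 0.05 in the authors' deposited table. That was Fzr1, which encodes an activator of the anaphase-promoting ubiquitin ligase, with 21.04 FPKM in the p16 group and 11.9 FPKM in the GFP group (q = 0.0668 in the authors' deposited table), which makes 1 of 4 called higher at a q below 0.1, beside 5.68% of tested genes. Cdc20, for another such activator and at a locus shared with another gene, had 0.953 FPKM in the p16 group and 2.49 FPKM in the GFP group (q = 0.584 in the authors' deposited table).

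G1/S genes that E2F is known to activate were the list with calls in 1 direction. Of 33 such genes 29 were tested, and the authors' deposited table called 4 of these lower and 0 higher. The 4 are 13.8% of the tested list, beside 1.1% of all tested genes called lower. With p-values adjusted over genes with a mean of at least 1 FPKM, 3 of the list were called lower. In the authors' deposited table, 12 of 29 had an unadjusted p below 0.05 with the lower value in the p16 group and 0 with the higher value, beside 7.01% of all tested genes lower and 10.2% higher. At a q below 0.1 the list had 9 lower, beside 2.05% of all tested genes. The p16 group had the lower value for 25 of 29, beside 51.6% of all tested genes. The list's median log2 ratio was -0.65, beside -0.02 over all tested genes. The list's median GC content was 46.1%, and its median log2 ratio relative to the GC bins was -0.54. Markers of cycling cells, given further on, had the lower summed level in the p16 group, with 2 of 6 called lower and 1 with the higher value. Rbl1, Ccne1, Ccne2, Cdk2 and Mybl2 are also on lists above.

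Cdk1, the kinase of mitotic entry, had 0.971 FPKM in the p16 group and 2.55 FPKM in the GFP group (log2 ratio -1.39, q = 0.0184 in the authors' deposited table). Pola1, the catalytic subunit of DNA polymerase alpha, had 0.997 FPKM in the p16 group and 2.07 FPKM in the GFP group (log2 ratio -1.06, q = 0.0422 in the authors' deposited table). The ribonucleotide reductase gene Rrm1 had 5.35 FPKM in the p16 group and 9.70 FPKM in the GFP group (log2 ratio -0.86, q = 0.0498 in the authors' deposited table). No gene of the list was called lower at a q below 0.01 in the authors' deposited table.

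**Figure D4:**
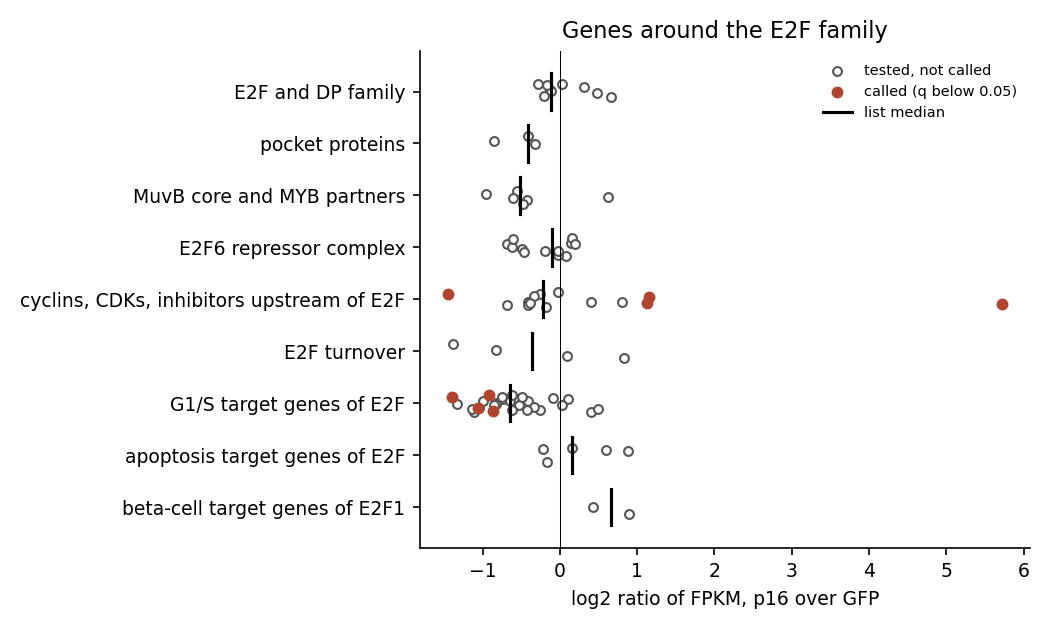
Log2 ratio of FPKM (p16 over GFP) of tested genes in the family and in 8 lists around it; each point is a gene, filled where called, and the bar is the list median. The family median lies at -0.12 with no filled point, and the G1/S target genes have a median of -0.65 with 4 filled points, all below 0.

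In the same promoter windows, 14 of the 26 G1/S target genes with a window held a match to the motif, or 53.8%, beside 4.58% of tested genes. The list was chosen as known E2F targets, so this describes how it was put together. Among the 3 called targets with a window, Cdk1 and Pola1 held a match and Rrm1 did not. Of the 19 tested targets with a window and no call, 10 held one, so matches were present with and without a call. The sites of the called genes are shown like those of the family.
Cdk1: tttccgctcccTTTCGCGCtctgcgctccc
Pola1: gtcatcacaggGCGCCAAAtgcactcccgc

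The Cdk1 site lies at chr10:69353025-69353054 and the Pola1 site at chrX:93632275-93632304, both on the minus strand of GRCm38. Cdk1 carries the same form as Tfdp1, and Pola1 the same as E2f2.

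**Figure D5:**
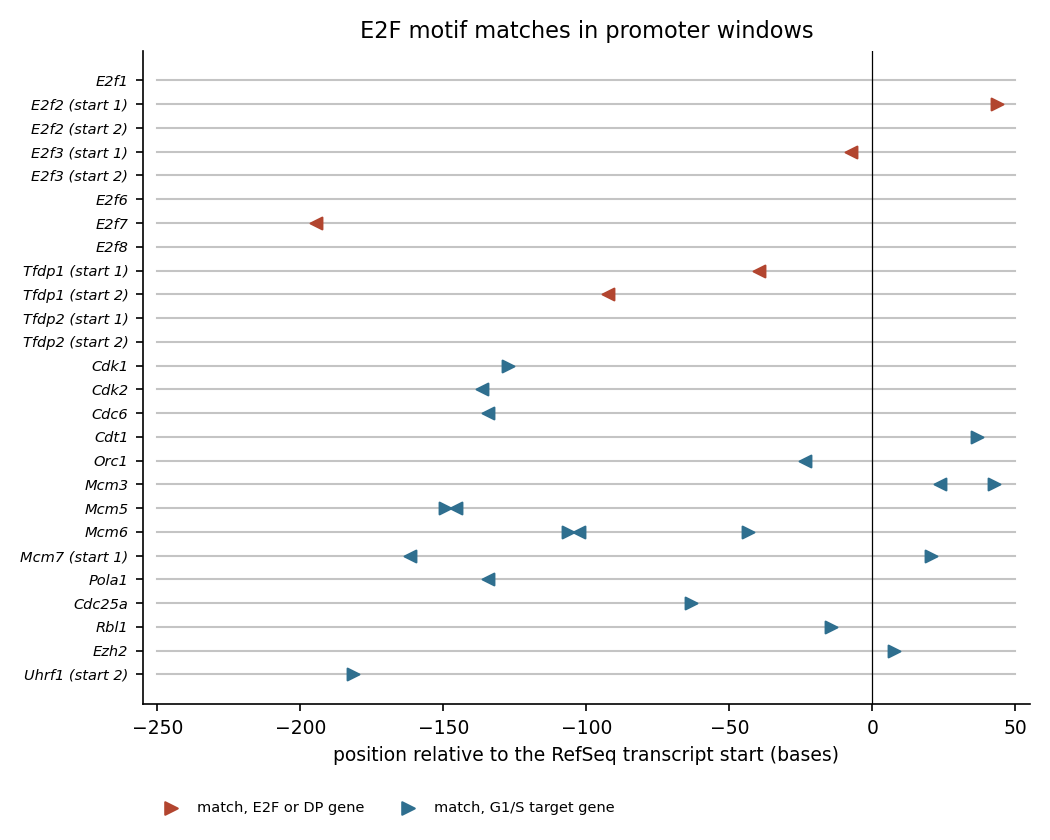
Positions of motif matches relative to the RefSeq transcript start in bases, for every window of the family (red) and for the G1/S target windows that hold a match (blue); arrowheads point along the strand that carries the motif. Matches lie on both sides of the start, from -198 for E2f7 to 47 for E2f2 among the family.

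Targets of E2F in apoptosis had 0 calls among 5 tested in the authors' deposited table, with 2 at an unadjusted p below 0.05, both higher, beside 10.2% of all tested genes higher at that p. The list's median log2 ratio was 0.15, and -0.024 relative to the GC bins. Bcl2l11, for the death factor BIM, had 11.4 FPKM in the p16 group and 6.16 FPKM in the GFP group (q = 0.0740 in the authors' deposited table). Of the beta-cell genes linked to E2F1, Kcnj11, a subunit of the channel that couples glucose to insulin release, had 60.8 FPKM in the p16 group and 45.2 FPKM in the GFP group (q = 0.425 in the authors' deposited table). Neurog3, a factor of endocrine precursors, had 1.48 FPKM in the p16 group and 0.792 FPKM in the GFP group (q = 0.372 in the authors' deposited table). Both beta-cell genes thus had the higher value in the p16 group, without a call, beside 48.4% of all tested genes with the higher value. The median log2 ratio of the 2 beta-cell genes was 0.66, and 0.36 relative to the GC bins.

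Markers of cycling and of other cells moved between the groups as well; over all tested genes 4.32% were called higher and 1.1% lower. Of 6 cycling cell markers 2, Top2a and Ccnb1, were called lower. The summed level of all 6 was 5.77 FPKM in the p16 group and 11.2 FPKM in the GFP group, and Top2a and Ccnb1 made up most of that difference. Mki67, Bub1 and Birc5 had the lower value in the p16 group and Aurkb the higher, all without a call. In these bulk samples, fewer cycling cells and less of each transcript per cell cannot be told apart. Delta and PP cell markers summed to 3897 FPKM in the p16 group and 1816 FPKM in the GFP group, with 3 of 4 called higher, and alpha cell markers to 2781 FPKM in the p16 group and 2159 FPKM in the GFP group, with 1 of 5 tested called higher. Stellate cell and fibroblast markers summed to 4.72 FPKM in the p16 group and 0.481 FPKM in the GFP group, with both tested members called higher. Duct cell markers summed to 169 FPKM in the p16 group and 144 FPKM in the GFP group, with 2 of 4 tested called higher and 1 lower. Most of both duct sums was Krt7, which was not called, at 152 FPKM in the p16 group and 134 FPKM in the GFP group. Acinar, endothelial and leukocyte markers summed to 16.2, 0.552 and 2.01 FPKM in the p16 group and to 15.4, 0.567 and 0.308 FPKM in the GFP group. Cd68, a macrophage gene, was the leukocyte marker called higher, while the T cell gene Cd3e was at 0 in both groups. The labelled cell type had its markers Pdx1, Mafa, Nkx6-1, Slc2a2, Ucn3, Slc30a8 and G6pc2 at 67.6 FPKM or more in both groups. These summed to 3605 FPKM in the p16 group and 4742 FPKM in the GFP group, and 2 of the 7 were higher and 3 lower at an unadjusted p below 0.05 in the authors' deposited table. Most of both beta-cell sums was G6pc2, which was not called, at 2327 FPKM in the p16 group and 3012 FPKM in the GFP group. The glucose transporter gene Slc2a2 was the 1 called lower, with 205 FPKM in the p16 group and 402 FPKM in the GFP group (q = 0.0242 in the authors' deposited table). Further beta-cell markers, Ins1, Ins2 and Iapp, carry no estimate because the authors' software marked them as having too many fragments. The part of other cells in the values of the family and its targets was not tested.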

How the data were processed

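RNA was sequenced from 5 samples of sorted beta cells, 3 of p16 and 2 of GFP mice. Per the submitters' processing notes the tools were TopHat2, Cuffnorm and Cuffdiff, and the build was mm9. The sources used here give no tool version, gene annotation, strand setting or scaling method. The authors deposited 1 FPKM value per group and gene, with a p-value and a q-value for p16 against GFP. FPKM is not a count, and depth per sample is unknown. Of 23951 genes the authors tested 13264; 10679 were not tested, 6 had too many fragments and 2 failed. Benjamini-Hochberg adjustment of the deposited p-values over tested genes gave the q-values within 5.23e-07. The mm9 starts of the deposited table were taken as counted from 0, and 1 was added to each. Of 887 microRNA lengths compared, 272 fitted a start counted from 0 and 1 a start counted from 1. The rest fitted neither.

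Log2 ratios (p16 over GFP) were computed from FPKM with no pseudocount. No fit over samples was possible, so calls are the authors' at a q below 0.05. The members and lists were chosen with earlier results of these data known. Named genes are all members, Cdkn2a, every called gene of a list, and its 2 most abundant genes where fewer than 2 were called. Some genes of the lists are counted but not reported by name here. Alternatives covered pseudocounts of 0.1, 1 and 5 FPKM, scaling, quantile normalization, GC content, thresholds of 0.01 and 0.1, and filters at a mean of 1 and 5 FPKM. GC content is that of the longest GENCODE M21 transcript, matched by symbol for 95.1% of tested genes. Promoter windows are from RefSeq on GRCm38, matched by symbol. The series' design text gives 3 mice with and 2 without the p16ink4a transgene. Functions used over all genes were tested on simulated data. Work was done in Python 3.11.15 (matplotlib 3.10.9, numpy 2.4.6, pandas 2.3.3).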

Additional observations from a re-analysis of the deposited data

How the results depend on the processing

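No member was called at a q of 0.01 or 0.1, or with p-values adjusted over genes with a mean of at least 1 or 5 FPKM. Of the 10 members 7 kept the sign of their log2 ratio under all 6 settings for the ratio. The others were E2f1, at -0.025 with quantile normalization and -0.28 relative to its GC bin, E2f8, at -0.099 with quantile normalization, and Tfdp1, at 0.020 relative to its GC bin; each was close to 0 as reported or had no call. At a q below 0.01 the G1/S targets had 0 called lower and the upstream genes 0 called lower, beside 0.437% of all tested genes. With p-values adjusted over genes with a mean of at least 1 FPKM the G1/S targets had 3 called lower, against 4 without that filter. At a q below 0.1 the G1/S targets had 9 called lower, beside 2.05% of all tested genes. E2F turnover and apoptosis targets had 1 called higher each at that q, beside 5.68% of all tested genes. The median log2 ratio of apoptosis targets was -0.024 relative to GC bins, a setting for lists that was chosen after seeing the data; that of the G1/S targets was -0.54. The cause of these shifts was not tested. No paired analysis was possible because the table gives 1 value per group, and for the same reason no replicate could be left out. Depth is unknown, which limits how far the values of E2f3, E2f7 and E2f8 can be read.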

Other observations

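The 6 subunits of the MCM helicase, which unwinds DNA at replication origins and is under E2F control, were looked at together after their values were seen. Mcm2 to Mcm7 all had the lower value in the p16 group, beside 51.6% of all tested genes. Of these 6 subunits 0 were called at a q below 0.05 in the authors' deposited table, beside 5.42% of all tested genes. Mcm4 came closest, with 8.21 FPKM in the p16 group and 14.6 FPKM in the GFP group (q = 0.0513 in the authors' deposited table), followed by Mcm5, with 1.41 FPKM in the p16 group and 2.81 FPKM in the GFP group (q = 0.0876 in the authors' deposited table). The replication clamp gene Pcna, the most abundant G1/S target, had 63.8 FPKM in the p16 group and 107 FPKM in the GFP group (q = 0.0876 in the authors' deposited table). Ezh2, a Polycomb methyltransferase gene known as an E2F target, had 1.16 FPKM in the p16 group and 2.50 FPKM in the GFP group (q = 0.0735 in the authors' deposited table). Each of these 4 genes was among the 9 of 29 tested targets called lower at a q below 0.1, beside 2.05% of all tested genes.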
